A study of Mus musculus with 6 samples.

Results

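Fam122c, Wdr37, 4932411N23Rik and Usp17la were counted mainly in nuclei isolated from mouse sperm and much less, or not at all, in whole sperm. These 4 genes were chosen on that difference, from their high nuclei counts and low whole-sperm counts, and Usp17lb, Usp17lc, Usp17ld and Usp17le were added as paralogs of Usp17la, so there are 8 members among the 23229 annotated genes of the count tables. The values that chose the 4 genes are given below as a description, without a test. Of the 8 members, 4 passed the filter on low counts and entered the fit across all features, and the 4 paralogs, listed at 0 in every library, did not.

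The series set RNA of sperm nuclei beside RNA of whole sperm to follow how transcripts are divided within the cell. The nuclei were 2 preparations, freed by sonication and purified on gradients of sucrose and caesium chloride, and the whole sperm was 1 preparation extracted without those steps. All sperm came from the cauda epididymis and vas deferens of individual mice aged 4 months of a C57BL/6 transgenic line named HP3.1, and both groups carry its transgene, whose content is not given in the sources used here. Each preparation was sequenced in 2 runs, handled here as combined, which makes 3 libraries from 6 samples.

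Mature sperm pack their DNA with protamines and do not transcribe, so the RNA they hold is left from earlier germ cell stages or taken up afterwards. Fam122c belongs to a small family named for Fam122a, an inhibitor of the phosphatase PP2A that carries a B55 subunit. Wdr37 encodes a protein of WD repeats that binds Pacs1 and Pacs2, sorting proteins of the secretory pathway. The Usp17l genes encode deubiquitinases, proteases that take ubiquitin off other proteins, and lie in clusters on mouse chromosome 7, where some were first described as cytokine-induced genes of blood cells.

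Library depth, as counts over genes and regions, was 5487306 (nuclei 1), 6648848 (nuclei 2) and 8316345 (whole sperm). All 12 spermatid and sperm markers had counts in every library, with summed levels of 5453 and 5391 CPM (counts scaled to a library of 1e6) in nuclei against 3135 CPM in whole sperm. Of these 12, 7 (58.3%) had both nuclei libraries above whole sperm and 3 had both below, beside 26.1% and 41.2% of all tested genes. Markers of the epididymal epithelium summed to 2678 and 2698 CPM in nuclei against 16730 CPM in whole sperm, with counts for 7, 6 and 7 of 12 in nuclei 1, nuclei 2 and whole sperm; Defb20, Lcn5, Lcn8 and Rnase10 were at 0 in each. Leukocyte markers summed to 18.1 and 11.1 CPM in nuclei against 35.6 CPM in whole sperm, from 4, 5 and 8 of 10 genes. Itgam alone had 14.3 and 3.90 CPM in nuclei against 2.08 CPM in whole sperm. Sertoli and Leydig cell markers summed to 30.0 and 7.05 CPM in nuclei against 21.5 CPM in whole sperm, from 4, 2 and 2 of 10 genes, with Amh, Star, Cyp11a1, Hsd3b1 and Insl3 at 0. Sox9 had 27.5 and 3.60 CPM in nuclei against 1.27 CPM in whole sperm. Wt1 had 0 and 3.45 CPM in nuclei against 20.2 CPM in whole sperm. Smooth muscle and stroma markers summed to 271 and 331 CPM in nuclei against 213 CPM in whole sperm, from 10, 8 and 10 of 12 genes. Vwf alone had 129 and 246 CPM in nuclei against 68.7 CPM in whole sperm. Of the 11 stroma genes tested, 5 (45.5%) had both nuclei libraries above whole sperm and 6 had both below. The shares of all tested genes were 26.1% and 41.2%. Spermatocyte markers summed to 362 and 424 CPM in nuclei against 235 CPM in whole sperm, and general epithelial markers to 98.7 and 147 CPM in nuclei against 449 CPM in whole sperm, with all 11 and all 8 genes counted in every library. Among the spermatocyte markers, Ddx4 alone had 209 and 148 CPM in nuclei against 62.1 CPM in whole sperm. Of those 11, 2 (18.2%) had both nuclei libraries above whole sperm and 3 had both below, beside 26.1% and 41.2% of all tested genes. The lists thus did not all lie on one side. The part of these marker differences in the values below was not tested, and in bulk RNA fewer cells of a type and less RNA per cell cannot be told apart.

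Fam122c had 330 counts in nuclei 1 and 332 in nuclei 2, and none in whole sperm. Its TMM-normalised level was 63.0 and 49.8 CPM in nuclei, against 0 CPM in whole sperm, where the floor of 3 counts is 0.346 CPM. The nuclei mean was 56.4 ± 9.34 CPM (SD, n = 2). Under TMM scaling this was at least 163-fold higher than that floor of the whole-sperm library, a bound not computed for other scalings. Both nuclei libraries therefore lay above whole sperm, as did those of 26.1% of all tested genes. The nuclei preparations differed from each other by 1.27-fold. Such intervals and floors cover counting error only.

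Of the 8599 genes listed at 0 in whole sperm, 584 had a count in both nuclei libraries, 34 had at least 50 in both and 8 had at least 100 in both. These were 5.5% of all genes with a count in both nuclei libraries, 0.729% of those with at least 50 in both and 0.255% of those with at least 100 in both. Fam122c had the highest minimum of these, 330 counts. The next were Fam96b with 191 and 128 counts, Gm15401 with 135 and 126 and Srgap1 with 145 and 122 in nuclei 1 and nuclei 2. The share of genes at 0 in whole sperm was thus lower among genes with more nuclei counts, and Fam122c was the 1 gene at 0 there among 1349 with at least 300 in both.

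Wdr37 had the most counts of the 8 members, with 5376 and 2441 counts in nuclei against 431 in whole sperm. These were 1026 and 366 CPM in nuclei, with a mean of 696 ± 467 CPM (SD, n = 2), and 49.8 CPM in whole sperm. The mean was 14.0-fold higher in nuclei, a log2 ratio of 3.80, and the single libraries were 20.6-fold and 7.35-fold higher. Both nuclei libraries lay above whole sperm, where Wdr37 was still well counted, so the transcript was detected in both kinds of preparation.

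Usp17la had 2934 and 1241 counts in nuclei against 219 in whole sperm. Its level was 560 and 186 CPM in nuclei, averaging 373 ± 264 CPM (SD, n = 2), and 25.3 CPM in whole sperm, with a 95% Poisson interval of 22.1 to 28.9. The nuclei mean was 14.8-fold higher, a log2 ratio of 3.88, from 22.1-fold in nuclei 1 and 7.36-fold in nuclei 2. Usp17la and Wdr37 thus had nearly the same folds in each preparation, although they lie on different chromosomes and differed in level.

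4932411N23Rik, a single-exon gene of the X chromosome, had 1028 and 143 counts in nuclei against 22 in whole sperm. This was 196 and 21.4 CPM in nuclei, a mean of 109 ± 124 CPM (SD, n = 2), and 2.54 CPM in whole sperm, with an interval of 1.59 to 3.85. The mean ratio of 42.8-fold, a log2 ratio of 5.42, rested on nuclei 1, at 77.2-fold, while nuclei 2 was 8.44-fold higher. Its nuclei SD exceeded its nuclei mean, and without nuclei 1 the log2 ratio was 3.07.

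**Figure D1:**
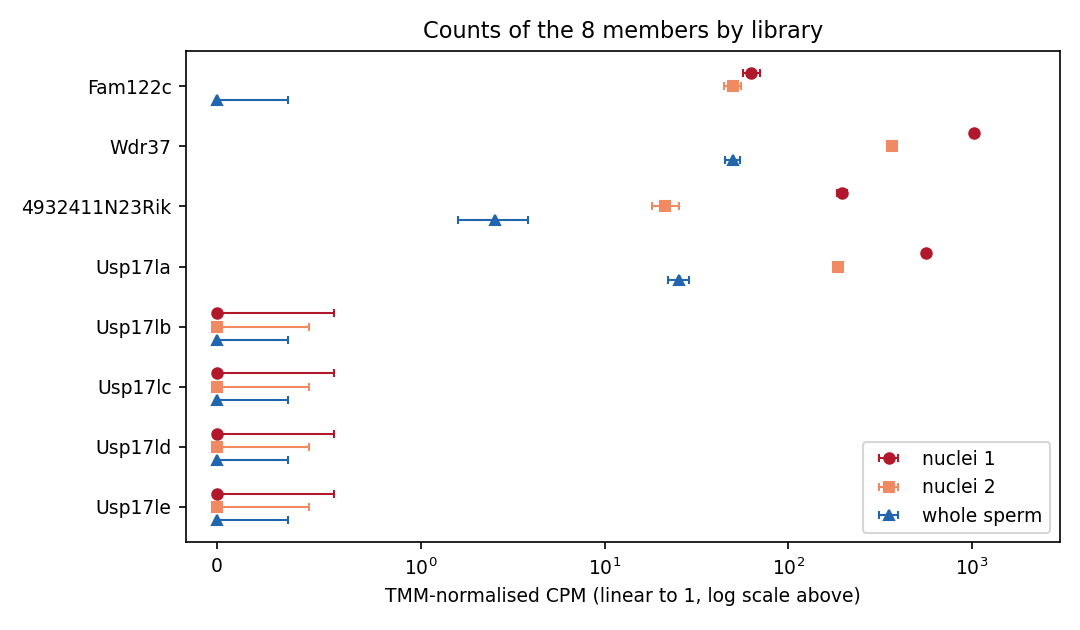
TMM-normalised CPM (linear below 1, log scale above) of the 8 members in nuclei 1, nuclei 2 and whole sperm, with bars for the exact 95% Poisson interval of each count and, at 0, up to a floor of 3 counts. The 4 chosen genes lie right of whole sperm in both nuclei libraries, and the 4 paralogs are at 0 in each library with floors of 0.572, 0.450 and 0.346 CPM.

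Between the nuclei preparations the order of the chosen genes was not kept. The ratio of nuclei 1 to nuclei 2 was 1.27 for Fam122c, 2.80 for Wdr37, 3.01 for Usp17la and 9.15 for 4932411N23Rik, each higher in nuclei 1. Over 4480 tested genes with at least 100 counts on average in nuclei and no 0 there, the median fold between the same preparations was 1.79 in either direction. A smaller fold was found in 21.6% of them than for Fam122c, 74.2% than for Wdr37, 77.1% than for Usp17la and 95.2% than for 4932411N23Rik. Fam122c was therefore among the steadier genes, and 4932411N23Rik among the most variable. The labels do not say which mouse gave which preparation, so this spread may be technical.

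As a background, edgeR's quasi-likelihood test with Benjamini-Hochberg adjustment called 4 of 14397 tested genes higher in nuclei (0.0278%) and 16 lower (0.111%) at an adjusted p under 0.05. The 4 called higher were the 4 chosen genes, from the contrast that chose them. The counts of calls depend on the setting: 1 higher and 527 lower with spike-in scaling, 86 and 33 with DESeq2, 2 and 13 with library size alone, and 0 and 0 at a mean of at least 10 CPM, where 346 and 269 had an unadjusted p under 0.05. Both nuclei libraries were above whole sperm for 26.1% of the tested genes and below it for 41.2%, and the median log2 ratio over all tested genes was -0.04. Scaled to the spike-ins instead, that median was -1.48, so directions are relative to the bulk of the genes. Just outside the threshold were Ambp with an adjusted p of 0.06, Nhlh2 at 0.0734, and AA388235, Runx2 and Rph3a at 0.132 each, all 5 of which DESeq2 called.

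Counts of the outside genes resembled those of the chosen ones in size. Nhlh2, a transcription factor gene, had 2311 and 796 counts in nuclei against 229 in whole sperm, and Runx2, a transcription factor of bone formation, had 779 and 415 in nuclei against 57 in whole sperm. Ambp, the precursor of alpha-1-microglobulin and bikunin, had 88 and 628 counts in nuclei against 5 in whole sperm, and so was higher in nuclei 2 than in nuclei 1. Rph3a, a synaptic vesicle protein gene, had 307 and 900 counts in nuclei against 48 in whole sperm. The threshold therefore falls within a run of genes with similar counts.

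**Figure D2:**
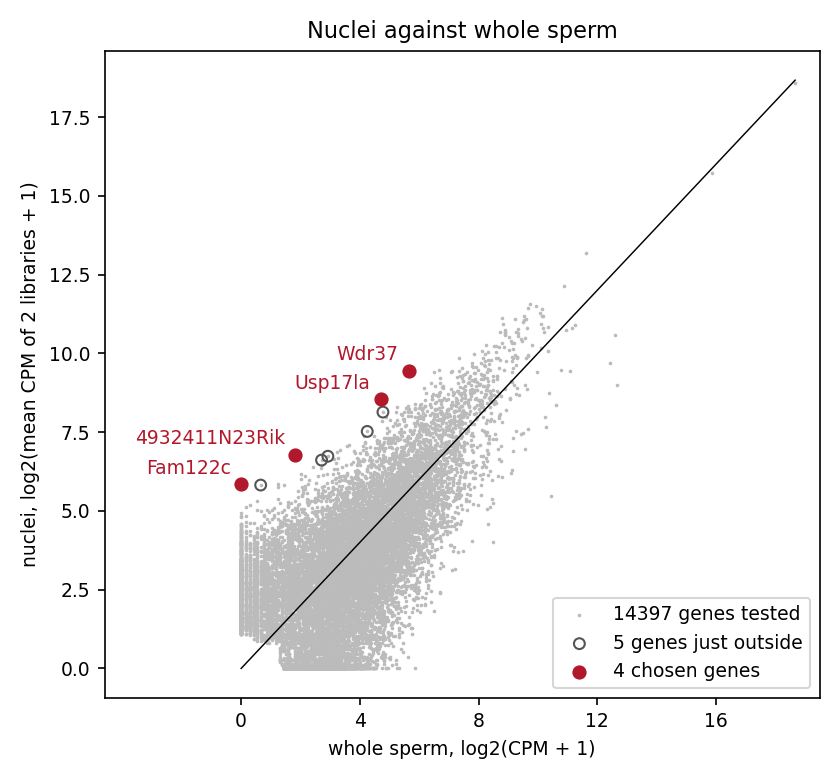
Each point is 1 of 14397 tested genes, with whole-sperm CPM on the horizontal axis and the mean CPM of the nuclei libraries on the vertical axis, both as log2 of CPM plus 1. The 4 chosen genes (red) lie at the upper left edge above the line of equality, at nuclei means between 56.4 and 696 CPM, next to the 5 genes just outside the threshold (open circles).

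The deposited RPKM table, a depth-scaled read density per kilobase of transcript, gave the same direction for the 4 genes with other sizes. Fam122c was listed at 49.6 and 43.9 RPKM in nuclei, a mean of 46.7 ± 4.04 (SD, n = 2), and at 0 in whole sperm. Wdr37 had 72.1 and 28.8 RPKM in nuclei against 4.14 RPKM in whole sperm, a 12.2-fold higher mean. Usp17la had 46.1 and 19.4 RPKM in nuclei against 3.61 RPKM in whole sperm, 9.08-fold higher. 4932411N23Rik had 12.4 and 1.65 RPKM in nuclei against 0.316 RPKM in whole sperm, 22.3-fold higher, about 1 doubling below its fold in counts. Both nuclei RPKM values of each of the 4 genes were above its 1 whole-sperm value, and the share of all genes with this in RPKM was not computed. The RPKM values come from the same libraries that chose the genes, so their direction is a description and no separate support.

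In RPKM, a level per transcript length, Wdr37 ranked 178 among genes in nuclei 1 and 1073 in nuclei 2, and 5546 in whole sperm. Usp17la ranked 360 and 1586 in nuclei against 6080 in whole sperm. Fam122c ranked 321 and 683 in nuclei, which made it the highest member of nuclei 2. 4932411N23Rik ranked 2074 and 6920 in nuclei against 13052 in whole sperm. The 3 other chosen genes thus ranked above 4932411N23Rik in every nuclei library.

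The order of the members changed when the counts themselves were divided by transcript length. Wdr37 then had 271 and 96.8 CPM per kilobase in nuclei against 13.2 in whole sperm. Usp17la had 211 and 70.0 CPM per kilobase in nuclei against 9.52 in whole sperm. Fam122c had 84.5 and 66.8 CPM per kilobase in nuclei against 0 in whole sperm. It was now below Usp17la in both nuclei libraries, whereas in RPKM it was above Usp17la in both.

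Deposited RPKM was also set against a value from counts and the length of the listed transcript, scaled in each library so that the median gene of at least 20 counts has a ratio of 1. For Fam122c this ratio was 1.79 in nuclei 1, above those of 94.5% of 9119 genes, and 1.57 in nuclei 2, above 91.1% of 8473 genes. It was 0.811 and 0.709 for Wdr37 in nuclei against 0.556 in whole sperm. It was 0.668 and 0.661 for Usp17la in nuclei against 0.670 in whole sperm, and 0.658 and 0.625 for 4932411N23Rik in nuclei against 0.749 in whole sperm. For Usp17la the ratio was thus nearly the same in the 3 libraries. The level of Fam122c relative to the others depends on the table, and no source used here gives the lengths and totals behind the RPKM values.

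**Figure D3:**
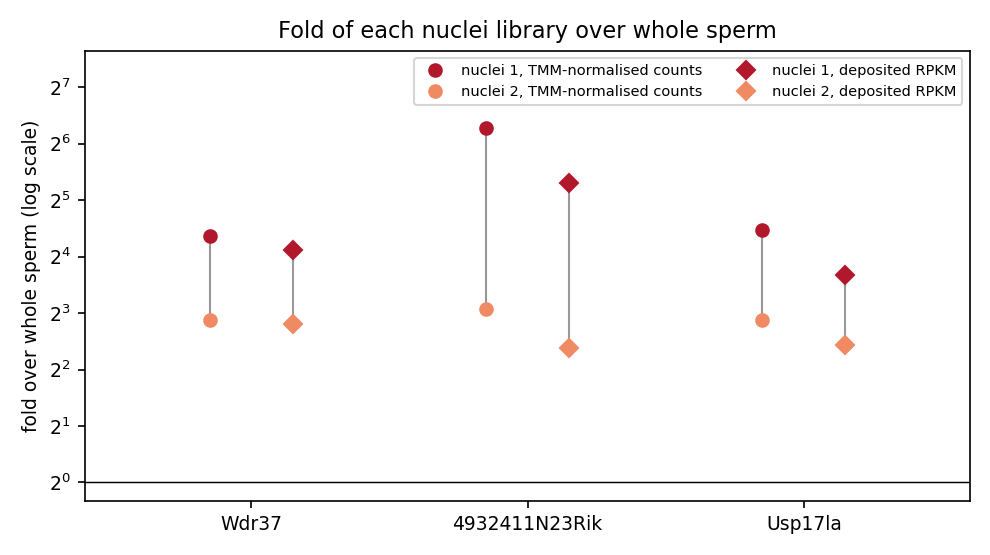
Fold of nuclei 1 (red) and nuclei 2 (orange) over whole sperm for Wdr37, 4932411N23Rik and Usp17la, on a log scale, from TMM-normalised counts (circles) and the deposited RPKM (diamonds). Each fold is above 1, and the widest gap between preparations is that of 4932411N23Rik, at 77.2-fold and 8.44-fold in counts. Fam122c is not drawn since its whole-sperm value is 0.

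The authors also deposited an adjusted whole-sperm column, in which each of 25610 rows was the whole-sperm count minus the average nuclei count, never under 0, within a tolerance of 0.5. All 8 members are 0 in it. For the 4 paralogs and Fam122c the whole-sperm count was already 0, and for Wdr37, Usp17la and 4932411N23Rik the nuclei mean exceeded it. Among the 15602 rows with a whole-sperm count, 34.1% were set to 0 in this way, so the 431 whole-sperm counts of Wdr37 are among many that the column removes.

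The 4 paralogs of Usp17la had 0 counts and 0 RPKM in every library. The floor of 3 counts was 0.572 and 0.450 CPM in the nuclei libraries and 0.346 CPM in the whole-sperm library. Usp17la at 560 and 186 CPM in nuclei was therefore the one member of its family with counts in these tables, and adding the 4 rows to it leaves its counts as they are. How reads that match several members were treated in the counting is not given in the sources used here, so the split between the members is uncertain.

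By position, build mm10 places Usp17la at chr7:104857009-104862667 on the plus strand, with 3 exons and a listed transcript of 2656 bases, of which 1578 are coding. Usp17lb (chr7:104840257-104842603, minus strand) is the nearest paralog and Usp17le (chr7:104768049-104777470, minus strand) the next. Usp17lc (chr7:103415072-103419880, plus strand) and Usp17ld (chr7:103249737-103252505, minus strand) form a separate pair on the same chromosome. Aligned over coding bases, Usp17la was 94.7% identical to Usp17le, 94.0% to Usp17ld, 93.9% to Usp17lc and 91.2% to Usp17lb, and Usp17lc and Usp17ld were 98.4% identical to each other.

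The same stretch of 90 bases at the start of the long coding exon, from the GENCODE transcripts, is shown to let a reader see how alike the rows are that were counted at 0 and the one that was not. It covers coding bases 29 to 118 of Usp17la (chr7:104860218-104860307, plus strand). Capitals mark a base of a paralog that differs from Usp17la, and in Usp17la the 1 base at which all 4 paralogs differ from it.
Usp17la: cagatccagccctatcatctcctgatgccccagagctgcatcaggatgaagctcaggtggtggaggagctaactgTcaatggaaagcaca
Usp17lb: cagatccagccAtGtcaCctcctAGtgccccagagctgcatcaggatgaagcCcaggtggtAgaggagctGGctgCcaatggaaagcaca
Usp17lc: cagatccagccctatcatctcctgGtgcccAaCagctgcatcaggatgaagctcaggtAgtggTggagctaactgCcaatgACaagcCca
Usp17ld: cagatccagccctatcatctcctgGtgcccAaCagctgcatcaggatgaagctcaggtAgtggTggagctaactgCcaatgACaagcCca
Usp17le: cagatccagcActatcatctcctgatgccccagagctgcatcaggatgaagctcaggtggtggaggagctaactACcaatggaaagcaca
Usp17le differed from Usp17la at 3 of the 90 positions, Usp17lc and Usp17ld at 9 each and Usp17lb at 10. The stretches of Usp17lc (chr7:103417528-103417617, plus strand) and Usp17ld (chr7:103251606-103251695, minus strand) read alike in this window. Those of Usp17lb (chr7:104841601-104841690, minus strand) and Usp17le (chr7:104769714-104769803, minus strand) each have their own pattern.

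Exact sharing covered the smaller part of the Usp17la transcript. Of its 2607 windows of 50 bases, 533 (20.4%) were also found in a transcript of another gene. Usp17le shared 290 of them, Usp17lb 177, the gene Gm5053 104, Usp17lc 99 and Usp17ld 61, and 65 genes shared at least 1. By part of the transcript, 11.2% of windows starting in the 5′ untranslated region, 19.9% in the coding sequence and 23.4% in the 3′ untranslated region were shared. The remaining windows have no exact match in another annotated transcript, and shorter reads, or reads with mismatches, can still match several genes.

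**Figure D4:**
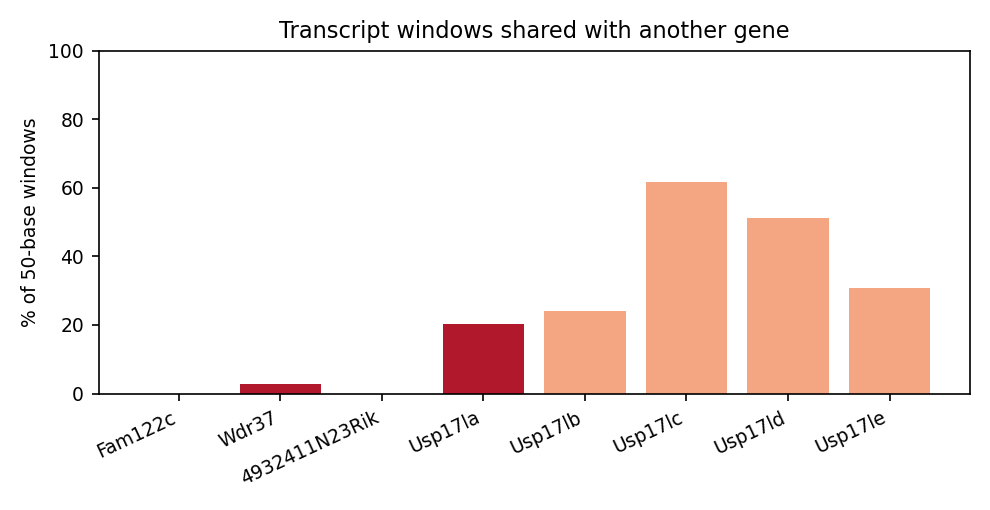
Percent of 50-base windows in the listed transcript of each member that also occur in a transcript of another gene. Bars are dark for the 4 chosen genes and light for the 4 paralogs; Fam122c and 4932411N23Rik are at 0, Wdr37 is at 2.92%, Usp17la at 20.4% and the paralogs lie between 24.2% and 61.6%.

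The other chosen genes shared little sequence. Fam122c (chrX:53273424-53331185, plus strand) has a listed transcript of 745 bases over 8 exons with 540 coding bases, and none of its 696 windows occurred elsewhere. 4932411N23Rik (chrX:126812462-126815868, minus strand) is 1 exon of 3407 bases with 1410 coding bases, and none of its 3358 windows occurred elsewhere. Wdr37 (chr13:8802968-8871909, minus strand) has several annotated transcripts, and the one listed for it in the RPKM table has 3780 bases, 5 exons and 510 coding bases. Of its 3731 windows, 109 (2.92%) were shared, 105 of them with Gm48374, an antisense gene that overlaps its 5′ end and has no row in the count tables. Whether strand was used in the counting is not stated, so reads of Wdr37 and Gm48374 there cannot be told apart. The introns of Fam122c also hold Gm23718, a small RNA gene, and Gm14585, a processed pseudogene, neither with a row of its own.

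The chosen genes had little in common in structure. Their listed transcripts ran between 745 and 3780 bases, against a median of 2794 over the 14071 tested genes with a length, and their exon numbers were 8, 5, 1 and 3, against a median of 9. Single-exon transcripts such as that of 4932411N23Rik made up 3.81% of tested genes. Fam122c and 4932411N23Rik are both on the X chromosome, where 16.5% of 448 tested genes had both nuclei libraries above whole sperm and the median log2 ratio was -0.70. On chromosome 7, with Usp17la, these were 32.7% and 0.31, on chromosome 13, with Wdr37, 23% and -0.32, and over all placed genes 26% and -0.05. The median gene of the X chromosome and of chromosome 13 was thus below that of all placed genes.

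The genes with a row within 250 kb of each chosen gene had far fewer counts in both nuclei libraries than it had. The chosen genes were picked for high nuclei counts, so this difference goes with the choice. Rows exist for 12 of 17 annotated genes around Fam122c and 5 of 20 around Wdr37. They exist for 1 of 6 around 4932411N23Rik and 21 of 40 around Usp17la, so the surroundings were covered only in part. Around Fam122c 12 genes have a row, of which 8 were at 0 in every library, and together they had 28 and 39 counts in nuclei against 98 in whole sperm. Its nearest counted neighbour, the family member Fam122b, lies 3.6 kb away on the opposite strand and had 1 and 0 counts in nuclei against 41 in whole sperm (log2 ratio -5.43, edgeR adjusted p = 0.909). Mospd1, which encodes a membrane protein with a motile sperm domain, had 0 and 38 counts in nuclei against 57 in whole sperm, and C430049B03Rik had 27 and 0 in nuclei against 0 in whole sperm. Fam122b and Fam122c are thus adjacent relatives whose counts lay on opposite sides, the side of Fam122c by its choice. Fam122b had few counts, and both nuclei libraries were below whole sperm for 41.2% of all tested genes.

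Around Wdr37, 5 genes with a row had 91 and 140 counts in nuclei against 535 in whole sperm. Idi1, an isomerase of the isoprenoid pathway 13.6 kb away, had 23 and 15 counts in nuclei against 173 in whole sperm (log2 ratio -2.59). Larp4b, an RNA-binding protein gene, had 34 and 111 in nuclei against 317 in whole sperm, and Gtpbp4, a GTPase of ribosome assembly, had 20 and 14 in nuclei against 45 in whole sperm. All 3 had a higher CPM in whole sperm than in either nuclei library, as did 41.2% of all tested genes. Of the 9 neighbours and regions with at least 20 counts in 1 library around all 4 genes, edgeR and DESeq2 called none. At an unadjusted p under 0.05 were 0 and 2 (22.2%) of them, beside 5.44% and 8.41% of all tested genes. Over all 14397 tested genes edgeR called 4 higher and 16 lower and DESeq2 86 and 33, so no call among 9 tells little.

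The genes with a row around the other chosen genes had few counts. Around Usp17la 21 genes have a row, 19 of them olfactory receptor genes, and 19 of the 21 were at 0 in each library, with 7 and 5 counts in nuclei against 0 in whole sperm in all. The 1 gene with a row near 4932411N23Rik, Gm382, had 14 and 2 counts in nuclei against 14 in whole sperm. Usp17la at 2934 and 1241 counts in nuclei therefore held nearly all counts among the genes with a row in its window. This also goes with its choice for high nuclei counts.

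Assembled regions outside annotated genes, from the authors' list, were also within reach of 3 members. One at chrX:53228089-53228375, 45.0 kb from Fam122c, had 53 and 43 counts in nuclei against 0 in whole sperm. Another at chrX:126775122-126775459, 37.0 kb from 4932411N23Rik, had 46 and 53 in nuclei against 0 in whole sperm. The last at chr7:105040683-105041013, 178 kb from Usp17la, had 71 and 0 in nuclei against 0 in whole sperm. The pattern was not rare, since 298 regions were at 0 in whole sperm with a count in both nuclei libraries, and 57 of them had at least 40 in both.

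**Figure D5:**
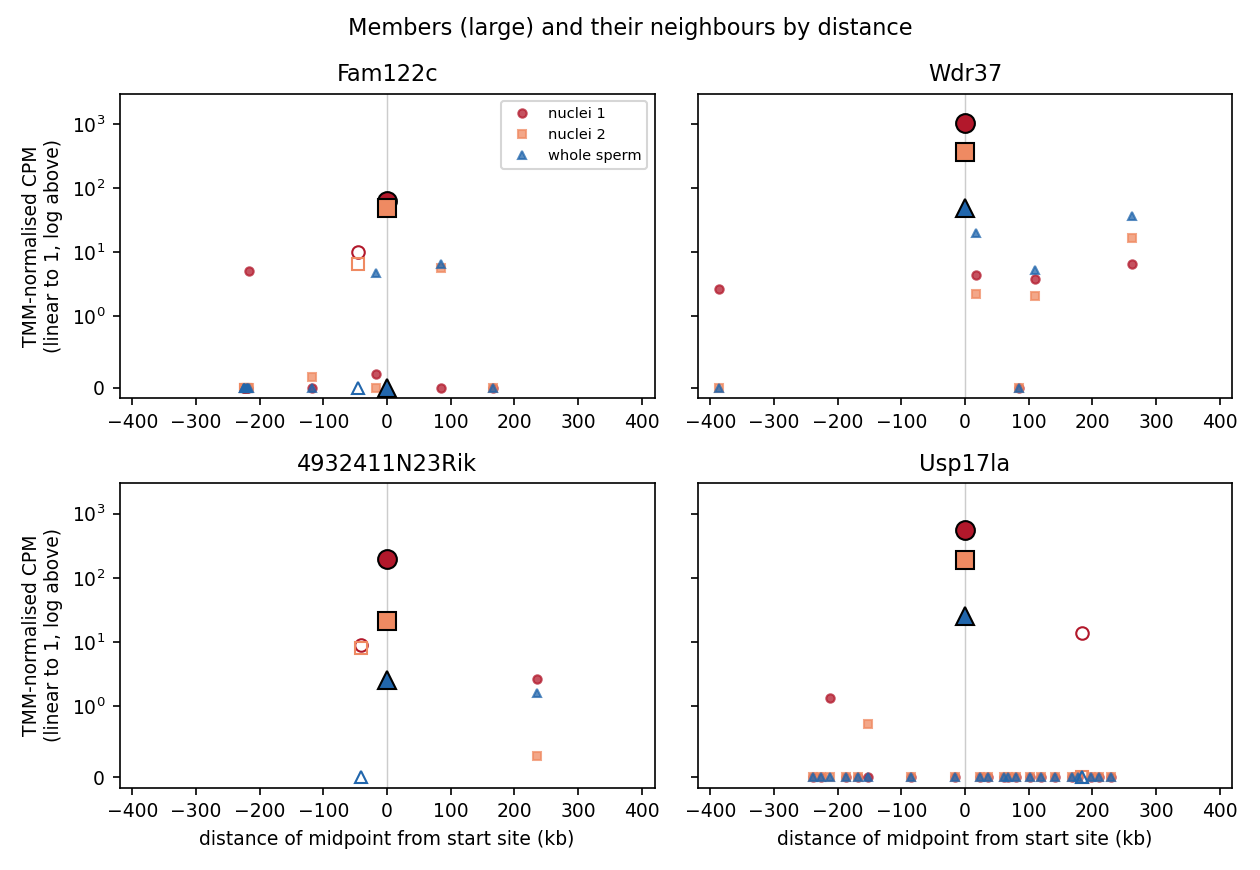
TMM-normalised CPM (linear below 1, log scale above) of each chosen gene (large symbols at 0 kb) and of the genes (small filled) and assembled regions (open) within 250 kb, against the distance of their midpoints from its start site in the forward direction of the chromosome. In both nuclei libraries each chosen gene is above every neighbour, which goes with the choice for high nuclei counts. In whole sperm all but Fam122c are, since Fam122c, at 0, is below Fam122b and Mospd1 there.

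Fam122c was set beside 32 PP2A subunits and regulators, itself and its relatives included. Without Fam122c, 30 were tested, 7 (23.3%) had both nuclei libraries above whole sperm and 16 had both below, beside 26.1% and 41.2% of all tested genes. edgeR called none of the 30, with 3 (10%) at an unadjusted p under 0.05 beside 5.44% of all tested genes. DESeq2 called Ppp2r2c higher (adjusted p = 0.0279), and edgeR with spike-in scaling called Strn3 lower. Over all 14397 tested genes these settings called 86 higher and 527 lower. Their median log2 ratio was -0.70, beside -0.04 over all tested genes. Fam122a, the family's PP2A inhibitor, had 6 and 3 counts in nuclei against 14 in whole sperm. Ppme1, the methylesterase of the PP2A catalytic subunit, had 93.7 and 149 CPM in nuclei against 16.3 CPM in whole sperm (log2 ratio 2.90, edgeR adjusted p = 0.346). Strn3, a striatin subunit, had 10.9 and 36.0 CPM in nuclei against 105 CPM in whole sperm, and Lcmt1, the opposing methyltransferase, had 17.6 and 53.5 CPM in nuclei against 55.1 CPM in whole sperm. Ppp2r5c, a B56 subunit, had 36.3 and 66.3 CPM in nuclei against 61.0 CPM in whole sperm. Ppp2r2c, a B55 subunit named here after its values were seen, was the list's other gene at 0 in whole sperm, with 73 and 203 counts in nuclei.

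Among genes named as ubiquitin-specific proteases, 46 were tested without Usp17la. Of these, 12 (26.1%) had both nuclei libraries above whole sperm and 19 had both below, beside 26.1% and 41.2% of all tested genes. edgeR called none of the 46, with 3 (6.52%) at an unadjusted p under 0.05 beside 5.44% of all tested genes. DESeq2 called Usp44 higher (adjusted p = 0.012), and edgeR with spike-in scaling called Usp6nl, Usp14, Usp34 and Usp9x lower, the last 3 named after their values were seen. Over all 14397 tested genes DESeq2 called 86 higher, and spike-in scaling called 527 lower with the median of all genes at -1.48. Their median log2 ratio was -0.27. The most abundant was Usp45, a nuclear deubiquitinase, with 288 and 488 CPM in nuclei against 287 CPM in whole sperm, followed by Usp6nl, a Rab GTPase-activating protein that is in the list by name only, with 164 and 350 CPM in nuclei against 415 CPM in whole sperm. Usp48 had 257 and 290 CPM in nuclei against 172 CPM in whole sperm. Usp44, a deubiquitinase of the spindle checkpoint, was named after its values were seen. It had 72.1 and 92.2 CPM in nuclei against 4.39 CPM in whole sperm (log2 ratio 4.22, edgeR adjusted p = 0.151). Usp44 was thus higher than Usp17la in its log2 ratio, at a lower level.

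Among WD repeat genes named Wdr, 58 were tested without Wdr37. Of these, 20 (34.5%) had both nuclei libraries above whole sperm and 27 had both below, beside 26.1% and 41.2% of all tested genes. Neither edgeR nor DESeq2 called any of the 58. At an unadjusted p under 0.05 were 0 and 4 (6.9%) of them, beside 5.44% and 8.41% of all tested genes. Their median log2 ratio was -0.36. Wdr64 had 405 and 838 CPM in nuclei against 391 CPM in whole sperm. Wdr90, a gene of ciliary assembly, had 44.8 and 98.0 CPM in nuclei against 21.1 CPM in whole sperm. Wdr1, which helps to take actin filaments apart, had 55.5 and 60.9 CPM in nuclei against 51.9 CPM in whole sperm. The partners of Wdr37 were in both nuclei libraries above whole sperm in TMM-normalised level, with log2 ratios of 0.77 for Pacs1 and 1.00 for Pacs2 that spike-in scaling turned to -0.68 and -0.44. Pacs1 was at 63.2 and 140 CPM in nuclei against 59.6 CPM in whole sperm, and Pacs2 was at 17.9 and 29.1 CPM in nuclei against 11.8 CPM in whole sperm, and neither was called (edgeR adjusted p = 0.909 and 0.983).

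Genes with the most similar pattern were taken by the Euclidean distance of log2(CPM + 1) over the 3 libraries, which describes likeness and shares depth and library with every gene. Nearest to Fam122c were Sigirr (distance 1.01), with 203 and 198 counts in nuclei against 1 in whole sperm, Tubg2 (1.14), with 247 and 160 in nuclei against 2 in whole sperm, Mllt11 (1.29) and Dmbt1 (1.45). Nearest to Wdr37 were D830030K20Rik (0.851), with 5106 and 2502 counts in nuclei against 782 in whole sperm, Gpc6 (0.992), Cd274 (1.19) and Snhg11 (1.36). These were alike in nuclei and had more counts than Wdr37 in whole sperm.

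Among the nearest to 4932411N23Rik were Hist2h2be (1.19), Phex (1.24) and Nrp1 (1.3), of which Hist2h2be had 618 and 145 counts in nuclei against 50 in whole sperm. Phex is also on the X chromosome. Nearest to Usp17la were Nhlh2 (0.726), Trim12c (0.794), Ccr4 (0.933) and Kcna2 (0.938), and Trim12c, also on chromosome 7, had 2241 and 899 counts in nuclei against 317 in whole sperm. Each of the 16 genes taken in this way had more CPM in both nuclei libraries than in whole sperm, as their choice by likeness entails. edgeR called none of the 16, all at an unadjusted p under 0.05, beside 5.44% of all tested genes. DESeq2 called 11 higher, beside 86 of all 14397 tested genes. Small p-values also go with the choice, since the 16 were picked for likeness to genes chosen on this contrast. Hist2h2be, Trim12c and D830030K20Rik belong to multigene families, and how far they share sequence with other copies was not measured.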

How the data were processed

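RNA of 2 sperm nuclei preparations and 1 whole-sperm preparation was analysed from count and RPKM tables. The counts are whole reads per gene or assembled region, deposited by the authors without normalization. The RPKM values are those the authors deposited, scaled by transcript length and depth. The adjusted whole-sperm column, which the authors deposited too, was handled as a score. The tools named per the submitters' processing notes include TopHat2 2.0.12, HTSeq, Cufflinks 2.1.1 and DESeq2, with build mm10. No source used here gives their roles, the strand setting or the read length.

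edgeR 4.0.16 in R 4.3.3 fitted all features together (TMM factors, filterByExpr, quasi-likelihood test, Benjamini-Hochberg adjustment over 16720 features, threshold 0.05). This was 14397 genes and 2323 regions of 25610 rows. The test has 1 residual degree of freedom and infinite prior degrees of freedom, so a single gene's own spread is not measured. Taken as 1 value over all features, the biological coefficient of variation was 1.3, but the fit let spread vary with level. The p-values measure only the spread between the 2 nuclei preparations, which may be technical. Whole sperm has 1 preparation, so a difference particular to it cannot be told apart from nuclei against whole sperm. Spike-ins stayed out of library sizes. The whole-sperm table's reads outside features (34.4% of its total) and ambiguous reads (1.97%) were left out. Levels are CPM on TMM-scaled libraries, a count of 0 has a floor of 3 counts per library, and other intervals are exact Poisson at 95%. Positions, lengths and windows of 50 bases come from GENCODE vM21, whose assembly is that of mm10, and MAFFT 7.526 aligned coding sequences. Alternatives were other scalings and filters, DESeq2 1.42.0, limma 3.58.1 on log2(RPKM + 0.1) and with pseudocounts of 1 and 0.01, and each nuclei library alone.

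The members and gene lists were chosen with earlier results of these data known. Named were all members, neighbours within 250 kb with at least 20 counts in 1 library, of each family list the called genes and the 4 highest in mean CPM, the 4 genes nearest to each chosen gene by log2(CPM + 1), and the 5 genes of smallest p outside the threshold among those higher in nuclei; others are said to be outside this rule. Gm382, Fam122a, the genes at 0 in whole sperm and the marker genes were named for context. Some genes that the rule takes are not reported here.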

Additional observations from a re-analysis of the deposited data

Results flagged for a closer look

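Of the reads in the whole-sperm counts, 5896320 lay outside features, 34.4% of its total, and 336963 were ambiguous, 1.97%; neither enters a comparison. They were flagged as signal in rows that the comparisons do not use. No such rows were used here for the nuclei libraries. Whether any of these reads came from the Usp17l genes, whose transcripts share windows, was not tested.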

How the results depend on the processing

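The 4 chosen genes kept their direction in all 52 alternative values. These come from the same 3 libraries that chose the genes, so the kept direction is no separate support. Log2 ratios ran between 2.38 and 4.36 for Wdr37, 2.18 and 6.26 for 4932411N23Rik and 2.46 and 4.47 for Usp17la. Fitted values of Fam122c ran between 5.57 and 12.2 and depend on the prior count or pseudocount. The count of genes called higher, 4 in the values reported, was 2 with library size alone (Fam122c and 4932411N23Rik), 1 with spike-in scaling (Fam122c), 86 with DESeq2 (all 4 among them) and 21 by limma on RPKM without a filter (Fam122c among them). It was 0 at a mean of at least 10 CPM (346 at an unadjusted p under 0.05) and 0 by limma on filtered log2(RPKM + 0.1), with pseudocount 1 and with 0.01 (148, 166 and 238). The count called lower, 16 in the values reported, was 527 with spike-in scaling, 33 with DESeq2, 1111 by limma without a filter, and 0 at a mean of at least 10 CPM (269 at an unadjusted p under 0.05) and by the same 3 limma settings (1624, 1998 and 1294). The causes were not tested. Spike-in scaling moved the median of all tested genes to -1.48 and those of the PP2A, USP and WDR lists to -2.14, -1.70 and -1.78. At a mean of at least 10 CPM the PP2A median was -0.28. Without nuclei 1 the PP2A, USP and WDR medians were -0.82, -0.18 and -0.86, beside -0.44 over all tested genes; without nuclei 2 they were -0.47, -0.67 and -0.08, beside -0.25. The USP and WDR medians thus lay on either side of that of all genes.

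Signs turned for 7 of 44 other named features. With spike-in scaling Usp45 was at -1, Usp48 at -0.76, Wdr64 at -0.77, Wdr1 at -1.27, Pacs1 at -0.68 and Pacs2 at -0.44. By limma on RPKM, Usp45 was at -0.15, -0.14, -0.15 and -0.15 and Wdr1 at -0.28, -0.25, -0.28 and -0.28 with pseudocounts of 0.1, 1, 0.01 and without a filter. Ppp2r5c was at 0.12 without nuclei 1 and at -0.75 without nuclei 2. Summing the Usp17l rows gave the counts of Usp17la. No paired analysis was possible because whole sperm has 1 preparation.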
